A study of Mus musculus with 4 samples.

Results

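Ldb1 and Gata2 occupancy were set directly against each other in mouse bone marrow progenitors, with the anti-Ldb1 and the anti-Gata2 library taken as the 2 members of a series of 4 chromatin immunoprecipitation libraries. Bone marrow cells carrying lineage markers had been removed with magnetic beads, the remaining cells were fixed with formaldehyde, and the chromatin was sonicated, immunoprecipitated, and read on an Illumina Genome Analyzer instrument. The other libraries, made with an antibody against Tal1 (also called Scl) and with control IgG, served here as readouts that took no part in the comparison. The labels name no strain, age, sex, genotype or treatment of the mice and do not say how many animals were pooled. The files hold no expression values, so the labelled cell type was not checked against marker genes.

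Ldb1 is a cofactor that does not bind DNA by itself. It dimerises and, through LIM-only proteins such as Lmo2, joins DNA-bound factors, among them the basic helix-loop-helix protein Tal1 with its E-protein partner and a GATA factor, into one complex that can also bring distant sites together. Gata2 is the zinc finger factor of stem and early progenitor cells that binds GATA motifs, alone or within such complexes, and it is also active in mast cells. The study's question was the role of Ldb1 in maintaining haematopoietic stem cells.

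Tags on chromosomes 1 to 19 were counted once per position and strand, which left 3866477 Ldb1 and 5785973 Gata2 tags. Gata2 (and Tal1) were thinned at random to 3866477 tags, so that the genome-wide ratio was 1, and tags were counted in bins of 500 bp. IgG kept its 3401045 tags, or 88.0 for every 100 tags of the other libraries. A bin was called leaning when it held at least 10 tags of both libraries together, the ratio was at least 4 and an exact two-sided binomial test of the ratio had a Benjamini-Hochberg adjusted p of at most 0.01. It was called raised in a library when its count exceeded the genome mean (0.899 tags per bin) in a one-sided Poisson test at an adjusted p of at most 0.01, which took at least 7 tags. For IgG, with a mean of 0.790, it took at least 8. With 1 library a side there is no replicate check: tests and 95% intervals compare these 2 libraries and cover counting error only. Coordinates refer to build mm8 of the mouse genome and are not assigned to genes here.

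Among 27786 bins with enough tags, 1425 leaned to Ldb1 (5.13%) and 695 leaned to Gata2 (2.50%). At an adjusted p of at most 0.01 without the fold limit, 1574 bins were higher in Ldb1 and 731 higher in Gata2. The leaning bins joined into 1243 Ldb1 and 659 Gata2 regions, mostly of 1 bin. Both kinds of place were thus short, and those of Ldb1 were the more numerous. With repeated tags kept, which also raised the depth to 5772492 tags a side, 3719 bins leaned to Ldb1 and 2253 to Gata2. At a false discovery rate of 0.001 the numbers were 964 and 287. More bins were nevertheless raised in Gata2 (19942) than in Ldb1 (16822), so the number of leaning bins does not measure the breadth of occupancy. A better immunoprecipitation with the Ldb1 antibody and stronger Ldb1 occupancy cannot be told apart with 1 library a side.

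**Figure D1:**
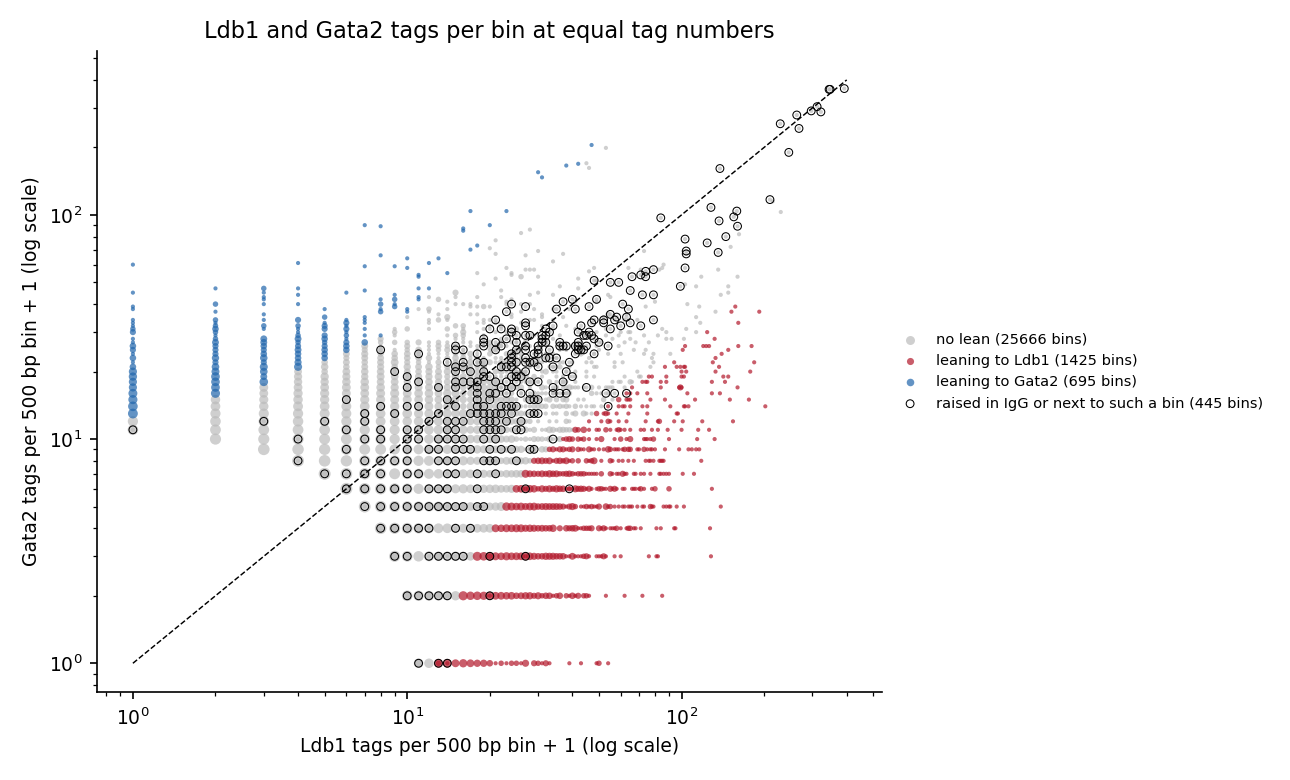
Ldb1 (x axis) and Gata2 (y axis) tags in each bin with at least 10 tags of both libraries, plus 1, on log scales. Larger points stand for more bins, the dashed line is equality, colours give the lean and open circles mark places dense in IgG tags. Bins leaning to Ldb1 reach 201 Ldb1 tags, and the bins with most tags of both, up to 391 Ldb1 tags, lie near the line and are dense in IgG.

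The counts of both libraries in the leaning bins, which the lean itself selects, are given here as a description. In bins leaning to Ldb1 the median count was 30 Ldb1 tags (quartiles 22 and 45) against 3 Gata2 tags (2 and 6). Bins leaning to Gata2 had a median of 18 Gata2 tags (15 and 25) against 1 Ldb1 tag (0 and 2). No Gata2 tag was found in 138 of 1425 bins leaning to Ldb1 (9.68%), and no Ldb1 tag in 276 of 695 bins leaning to Gata2 (39.7%). A count of 0 allows up to 3 tags. These shares go with the height of the leading library, since a bin with few tags can lean only when the other library is at or near 0. At equal counts of the leading library, the rule limits the other one alike in both classes, so that similar medians are built in. The median was 1 tag where Ldb1 led and 0 where Gata2 led at 12 to 19 tags. It was 3 and 2 at 20 to 29, and 5 and 4 at 30 to 49. In 295 of the bins leaning to Ldb1 (20.7%) Gata2 was itself raised, and in 41 of those leaning to Gata2 (5.90%) Ldb1 was. Pooled over the bins of a class, Ldb1 was 8.61 times Gata2 (8.39 to 8.84) where it led, and Gata2 was 11.4 times Ldb1 (10.8 to 12) where it led. The median fold over bins, with a count of 0 set to 3, had the other order, 8.50 and 6.67, and is lowered most by that setting where Gata2 led. IgG averaged 0.804 tags per bin where Ldb1 led, or 1.02 times its mean of 0.790 over all covered bins, and 1.03 where Gata2 led, or 1.3 times that mean. The part of this IgG excess in the lean to Gata2 was not tested.

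Tal1, which the comparison did not use, went with Ldb1. Of the bins leaning to Ldb1, 1388 of 1425 were raised in Tal1 (97.4%, interval 96.4 to 98.2), and of the bins leaning to Gata2 189 of 695 were (27.2%, 23.9 to 30.7). Over the genome, 0.638% of all covered bins were raised in Tal1, or 1.20% of the bins with a Tal1 tag. The median Tal1 count was 31 (quartiles 20 and 47) where Ldb1 led and 4 (2 and 7) where Gata2 led. Pooled, Tal1 tags in bins leaning to Ldb1 were 39.3 times the IgG tags (37.1 to 41.7, scaled to equal tag numbers), and those in bins leaning to Gata2 5.60 times (5.18 to 6.07). Where Ldb1 led, there were 0.934 Tal1 tags for each Ldb1 tag (0.923 to 0.946), and where Gata2 led, 0.287 for each Gata2 tag (0.278 to 0.297). Bins are not replicates, so no p-value is given for these shares. With repeated tags kept, and so at greater depth, the share for Ldb1 fell to 66.0%. Without thinning, that for Gata2 was 45.0%. The Ldb1 and Tal1 files had different tag formats (mismatch classes for Ldb1, match descriptors for Tal1) and tag lengths (25 bp and 36 bp), and the Gata2 file had the format of the Tal1 file and tags of 25 bp.

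**Figure D2:**
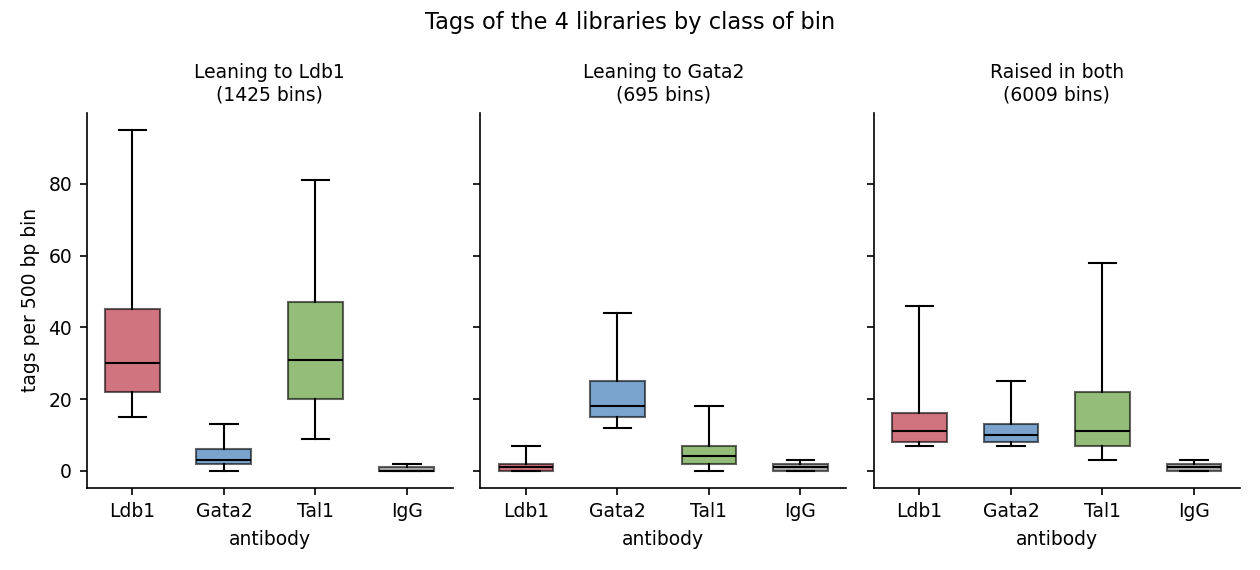
Tags per 500 bp bin (y axis) of the 4 libraries in bins leaning to Ldb1, leaning to Gata2, and raised in both away from places dense in IgG. Boxes give median and quartiles, whiskers the 5th and 95th percentiles over bins. Tal1 has a median of 31 tags in the first class, 4 in the second and 11 in the third.

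The same contrast was seen at matched counts of the leading library. With 12 to 19 tags of the leading library, 254 of 279 bins leaning to Ldb1 were raised in Tal1 (91.0%, 87.1 to 94.1), with a median of 16 Tal1 tags. At that level 62 of 392 bins leaning to Gata2 were (15.8%, 12.3 to 19.8), with a median of 3. With 30 to 49 tags the shares were 416 of 419 (99.3%, 97.9 to 99.9) and 38 of 83 (45.8%, 34.8 to 57.1). The intervals did not overlap at these levels. With 50 to 99 tags, all 247 bins leaning to Ldb1 and 18 of 19 leaning to Gata2 were raised in Tal1, and with 100 or more tags all 59 and all 7 were. The Tal1 share thus rose with the Gata2 count, and the classes differed least among the bins with most tags. Those 7 bins are not all separate places, since they include bins of chr1:24566501-24567500 and the nearby chr1:24568501-24570000. Others lie in chr2:22440501-22442000 and chr13:85600001-85601000. A further 1 is chr4:116976001-116976500, where 97.6% of the deposited Gata2 tags had no mismatch. Whether these places hold sequence that occurs elsewhere in the genome was not tested.

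Around the summits, where tags had been moved towards the fragment centre, both kinds of region had a narrow peak. At 1231 regions leaning to Ldb1 and away from places dense in IgG, Ldb1 density within 200 bp was 27.6 times that at 1000 to 2000 bp, which is partly what selected them. Tal1 was at 21.1 times there (20.7 to 21.6), Gata2 at 4.13 times (3.99 to 4.28) and IgG at 1.04 times (0.957 to 1.13). At 659 regions leaning to Gata2, Gata2 was at 13.4 times, Tal1 at 3.82 times (3.66 to 3.98), Ldb1 at 1.73 times (1.63 to 1.85) and IgG at 1.5 times (1.36 to 1.65). The intervals of Ldb1 and IgG overlapped narrowly at these regions, which is not a test of equality. Pooled over the bins leaning to Gata2, Ldb1 tags were 1.71 times the IgG tags (1.57 to 1.88, scaled to equal tag numbers). The lean rule capped the other library in each class, so these Ldb1 values and that of Gata2 where Ldb1 led are partly built in. Reverse-strand tags lay downstream of forward-strand tags by a median of 116 bp for Ldb1 in 1145 regions leaning to Ldb1, and by 91.5 bp for Gata2 in 564 regions leaning to Gata2, where each strand had at least 5 tags. Over the genome, the most frequent distance between tags of the 2 strands, which is another measure, was 111 bp for Ldb1 and 106 bp for Gata2.

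**Figure D3:**
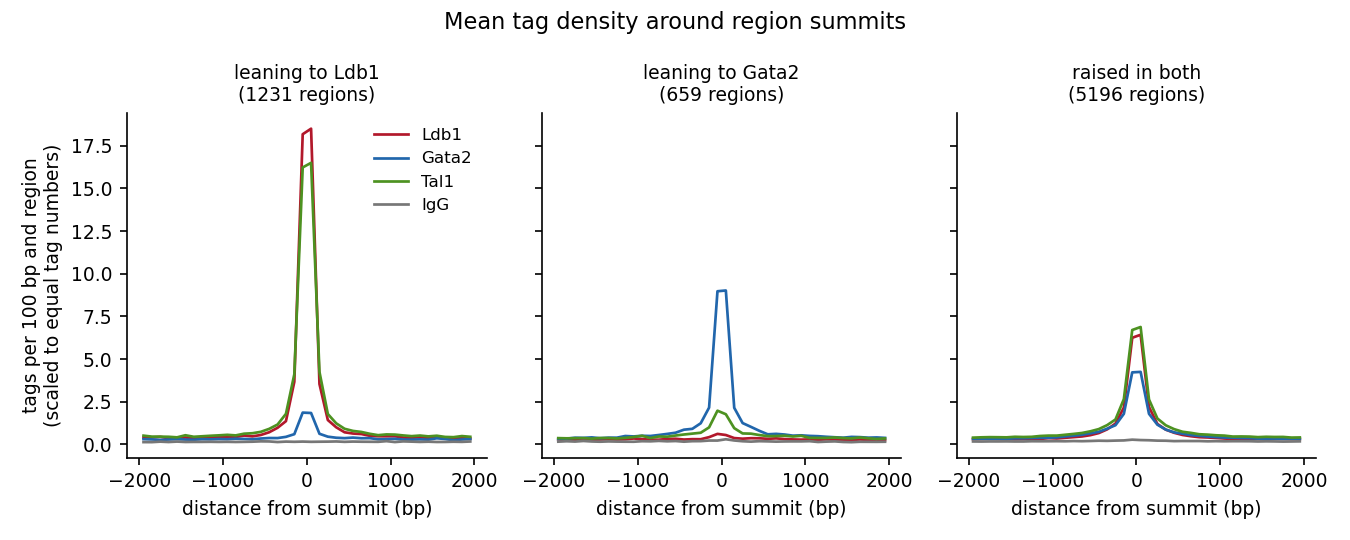
Mean tags per 100 bp and region (y axis), scaled to equal tag numbers, by distance from the summit (x axis, bp) for the 4 libraries. The summit is that of Ldb1, of Gata2, or the midpoint of both. Tal1 forms a peak nearly as high as Ldb1 at the 1231 regions leaning to Ldb1 and a low one at the 659 regions leaning to Gata2.

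Ldb1 and Gata2 also rose together in many places. Ldb1 was raised in 16822 bins (0.735% of those with an Ldb1 tag), Gata2 in 19942 (0.855%) and IgG, by the same test, in 620 (0.0275%). Both were raised in 6317 bins (0.492% of the 1283475 bins with a tag of each), which is 37.6% of the bins raised in Ldb1 (36.8 to 38.3) and 31.7% of those raised in Gata2 (31.0 to 32.3). With repeated tags kept, and so at greater depth, these shares were 18.5% and 30.8%, over 11329 bins. Of the 6317 bins 308 lay in or next to bins raised in IgG. There, Ldb1, Gata2 and IgG tags were about equally frequent (Ldb1 1.18 times IgG and Gata2 0.930 times, scaled), and only 48.2% of the deposited Ldb1 tags had no mismatch, against 74.9% in the whole library. In the other 6009 bins Ldb1 was 13.2 times (12.9 to 13.5) and Gata2 10.1 times IgG (9.84 to 10.4). This split used the IgG counts, so the IgG ratios describe its 2 sides and test nothing.

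In the 6009 shared bins away from IgG, the typical place had nearly equal counts. The median count was 11 for Ldb1, 10 for Gata2 and 11 for Tal1. In 82.9% of them the counts of Ldb1 and Gata2, each plus 1, were within 2-fold. Tal1 was raised in 4618 (76.9%, 75.8 to 77.9). Bins raised in Ldb1 but not Gata2, with those dense in IgG included, numbered 10505, and 56.3% (55.3 to 57.2) were raised in Tal1. Bins raised in Gata2 but not Ldb1 numbered 13625, and 25.5% (24.7 to 26.2) were raised in Tal1. Tal1 was thus least often raised where Gata2 was raised without Ldb1.

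Within regions raised in both, the Ldb1 and Gata2 summits were a median of 58 bp apart (quartiles 23 and 136, 5196 regions), and 66.2% were within 100 bp (64.9 to 67.5). Summits were sought only inside the region, mostly 1 bin long, so short distances are partly built in.

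Gata2 followed the Ldb1 level only in part. Away from places dense in IgG, the median Gata2 count was 4 in bins with 7 to 9 Ldb1 tags, 6 in each class from 10 to 49 Ldb1 tags, 9 with 50 to 99 and 20 with 100 or more. The share raised in Gata2 went from 27.7% (26.8 to 28.6) with 7 to 9 Ldb1 tags to 44.7% (43.2 to 46.2) with 10 to 14, and was 46.0% (42.9 to 49.2) with 25 to 49. It reached 91.1% (82.6 to 96.4) in the 79 bins with 100 or more. Of those 79 bins, 59 still leaned to Ldb1. Between 10 and 49 Ldb1 tags the Gata2 median was therefore flat, while its mean went from 6.92 over 8.35 to 10.2 and its upper quartile from 9 to 11. In the other direction, the median Ldb1 count was 3, 5, 7, 11 and 24 in bins with 7 to 9, 10 to 14, 15 to 24, 25 to 49 and 50 to 99 Gata2 tags. The next class, with 100 or more Gata2 tags, had 12 bins and a median of 42.5 Ldb1 tags.

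Across classes of Tal1 count, Ldb1 varied more than Gata2. With 10 to 14 Tal1 tags, the median was 5 Ldb1 and 4 Gata2 tags over 7312 bins. With 25 to 49 Tal1 tags, it was 17 Ldb1 and 5 Gata2 tags over 2216 bins. With 50 to 99 Tal1 tags, it was 40 Ldb1 and 10 Gata2 tags over 570 bins, 48.4% of which leaned to Ldb1 and 1.05% to Gata2. Between 7 and 49 Tal1 tags, the Ldb1 median went from 3 to 17 and the Gata2 median from 3 to 5, and the share raised in Gata2 from 22.9% (22.2 to 23.6) to 41.6% (39.5 to 43.7). Both factors were thus higher in bins with more Tal1 tags, and Ldb1 by the larger factor. Across all 27142 bins raised in Tal1 and away from IgG, the log2 ratio of Ldb1 to Gata2 (each count plus 1) had a median of 0.22 and quartiles of -0.58 and 1.14. Spearman's rho of Ldb1 and Gata2 over these bins was 0.335 (Pearson's r of log2 counts 0.340). It is a description across bins, which share the libraries and their depth.

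**Figure D4:**
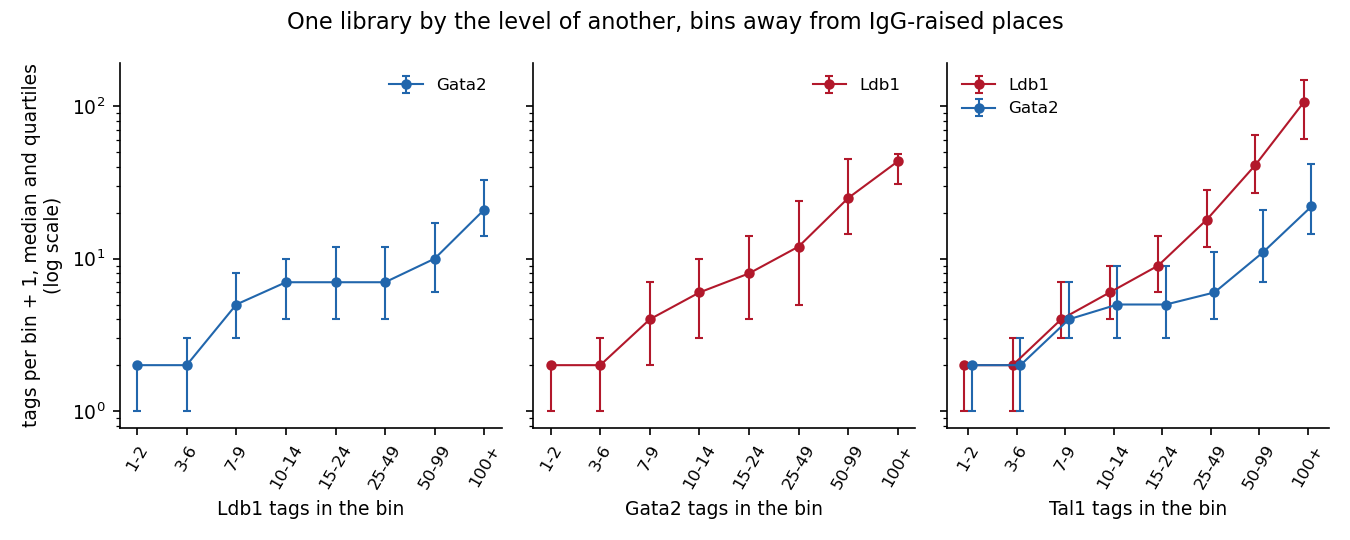
Median tags per bin plus 1 (y axis, log scale; bars give the quartiles) of one library by the tag count of another (x axis). Gata2 stays at a median of 6 between 10 and 49 Ldb1 tags, and Ldb1 rises with Tal1 from a median of 5 to 40 tags between the classes of 10 to 14 and 50 to 99 Tal1 tags.

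The regions leaning to Ldb1 with most Ldb1 tags were named by rule, after 12 of the 1243 were set aside for IgG-raised bins within 1 kb. The first, chr16:32429001-32430000, held 274 Ldb1, 65 Gata2, 222 Tal1 and 2 IgG tags, a ratio of Ldb1 to Gata2 of 4.22 (3.21 to 5.61). The second, chr7:24085501-24086500, held 232 Ldb1, 15 Gata2, 128 Tal1 and 0 IgG tags (ratio 15.5, 9.18 to 28.1). At chr15:38487501-38488500 there were 223 Ldb1, 14 Gata2, 141 Tal1 and 0 IgG tags (ratio 15.9, 9.30 to 29.6). The widest ratio among the 10 was at chr11:102179501-102181500, with 214 Ldb1, 7 Gata2, 103 Tal1 and 1 IgG tag (30.6, 14.6 to 77.0). All 10 were raised in Tal1, as were 9 of the 10 named regions leaning to Gata2, and IgG had at most 7 tags. The 10 were chosen by their Ldb1 tags (184 to 274), so a narrow Ldb1 range is built in. Tal1 ranged among them from 58 tags at chr8:125195001-125196000, where Ldb1 had 232 and Gata2 25, to 222. Near that region lay chr8:125207501-125208500, with 203 Ldb1, 33 Gata2, 120 Tal1 and 1 IgG tag. Farther along the chromosome, chr8:125551001-125553500 held 202 Ldb1, 34 Gata2, 219 Tal1 and 7 IgG tags. The best bins of the 10 had adjusted p-values of at most 5.6e-08 in the exact binomial test with Benjamini-Hochberg adjustment. The remaining regions were chr18:32685001-32686000, chr7:80082001-80083000 and chr9:21712501-21714500, with 184 to 222 Ldb1 and 25 to 39 Gata2 tags. Set against the ratio of the surrounding 50 kb, the regions chr16:32429001-32430000 and chr8:125207501-125208500 no longer passed. At a limit of 8-fold these 2 and chr7:80082001-80083000 did not. The surrounding 50 kb of chr8:125207501-125208500 took in chr8:125195001-125196000, which also leaned to Ldb1, so its loss against that ratio was partly built in.

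The 10 named regions leaning to Gata2 were numbered by their Gata2 tags and differed in their Tal1 tags. The first 5 were dense in Tal1 as well. Of these, chr1:24566501-24567500 held 358 Gata2, 75 Ldb1, 243 Tal1 and 2 IgG tags, a ratio of Gata2 to Ldb1 of 4.77 (3.71 to 6.21). At chr1:24568501-24570000 there were 357 Gata2, 78 Ldb1, 229 Tal1 and 0 IgG tags. At chr2:22440501-22442000 they were 315 Gata2, 65 Ldb1, 260 Tal1 and 3 IgG tags. The fourth, chr4:79474001-79476500, held 306 Gata2, 74 Ldb1, 266 Tal1 and 3 IgG tags. The fifth, chr13:85600001-85601000, held 119 Gata2, 17 Ldb1, 83 Tal1 and 3 IgG tags.

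Tags at 3 of these regions were unusual in their matches. Of the deposited Gata2 tags, 67.1% at chr2:22440501-22442000, 41.9% at chr4:79474001-79476500 and 55.2% at chr13:85600001-85601000 had no mismatch, against 95.2% in the whole library. The Ldb1 tags there had no mismatch in 43.0%, 25.4% and 36.7%, against 74.9%. The strand distance of Gata2 was -24.5 bp, 70 bp and -14 bp in that order, against a median of 91.5 bp over 564 regions leaning to Gata2. Low values were not particular to these 3 regions. Among regions raised in both, it was -27 bp at chr1:24565501-24570500 and 11 bp at chr8:125605501-125607000. There, 96.1% and 95.6% of the deposited Gata2 tags had no mismatch. With tags that had a mismatch left out, the log2 ratio of Ldb1 to Gata2 was -2.83, -2.58 and -3.51 in these regions, against -2.28, -2.05 and -2.81 with all tags. No genome sequence of this build was used here, so whether these 3 regions and those on chromosome 1 hold sequence that occurs elsewhere in the genome was not tested.

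The other 5 named regions leaning to Gata2 had fewer Gata2 tags, which their numbering sets. At chr4:116976001-116976500 there were 103 Gata2, 22 Ldb1, 45 Tal1 and 2 IgG tags. At chr10:127907501-127908000 there were 89 Gata2, 6 Ldb1, 14 Tal1 and 2 IgG tags (ratio 14.8, 6.55 to 41.5). The region chr3:96665501-96666000 held 88 Gata2, 7 Ldb1, 6 Tal1 and 0 IgG tags (ratio 12.6, 5.85 to 32.2), and Tal1 was not raised there. Mismatches did not set these apart, since 94.9 to 97.7% of their Gata2 tags had none. At chr19:5842001-5843500 (90 Gata2, 12 Ldb1, 56 Tal1 tags) IgG had 9 tags, the most of any named region. The last, chr8:73631001-73633000, had 83 Gata2, 13 Ldb1, 45 Tal1 and 5 IgG tags. Against the ratio of the surrounding 50 kb, both regions on chromosome 1 and chr4:116976001-116976500 no longer passed. At a limit of 8-fold these 3 and chr2:22440501-22442000 did not. The surrounding 50 kb of each chromosome 1 region took in the other one, so their loss against that ratio was partly built in. Among the 489 regions leaning to Gata2 without raised Tal1, chosen for description after their values were seen, chr2:118942001-118943000 held 81 Gata2, 5 Ldb1, 10 Tal1 and 1 IgG tag. In the same group, chr12:9055501-9056000 held 44 Gata2, 0 Ldb1, 5 Tal1 and 0 IgG tags, at least 14.7-fold higher in Gata2 when the Ldb1 count is set to the 3 tags that 0 allows.

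The named regions raised in both were those with the largest lower count of the 2 libraries. At chr1:182687001-182688000 there were 243 Ldb1, 136 Gata2, 132 Tal1 and 2 IgG tags. At chr8:87590001-87592000 the counts were 348 Ldb1, 119 Gata2, 254 Tal1 and 5 IgG, and at chr8:125605501-125607000 they were 325 Ldb1, 119 Gata2, 193 Tal1 and 5 IgG. Pooled over each region, Ldb1 thus exceeded Gata2 there by 1.79 (1.44 to 2.22), 2.92 (2.37 to 3.63) and 2.73 times (2.21 to 3.40). The 4-fold limit applied to single bins, so a region with a lower pooled ratio can still hold a leaning bin. The nearest to equal was chr8:125170001-125171500, with 107 Ldb1, 111 Gata2, 50 Tal1 and 5 IgG tags (ratio 0.964, 0.732 to 1.27), and it had fewer Tal1 tags than any other of the 10. At chr17:29586501-29587500 there were 147 Ldb1, 114 Gata2, 190 Tal1 and 4 IgG tags. The stretches chr1:24565501-24570500 (340 Ldb1, 1398 Gata2, 994 Tal1 and 2 IgG tags) and chr2:22440001-22442500 (102 Ldb1, 423 Gata2, 365 Tal1 and 4 IgG tags) also met the rule and contain regions leaning to Gata2 named above. The last 3 were chr7:15453001-15454500, chr14:53660001-53660500 and chr18:50153001-50154000, with 122 to 162 Ldb1 and 81 or 82 Gata2 tags. Of the 30 named regions, 5 lay on chromosome 8 between 125170001 and 125607000, 3 leaning to Ldb1 and 2 raised in both.

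**Figure D5:**
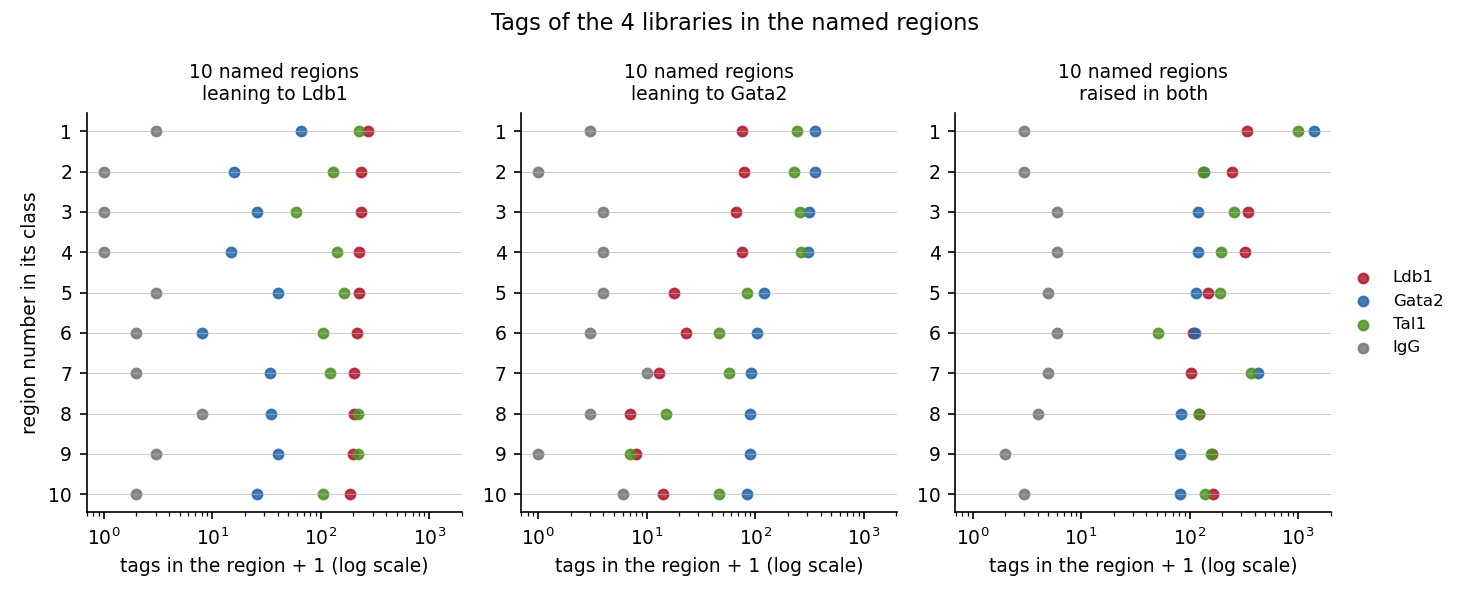
Tags plus 1 (x axis, log scale) of the 4 libraries in the 10 named regions of each class (y axis, numbered by tag count). In regions leaning to Ldb1 Tal1 lies between 58 and 222 tags and Gata2 between 7 and 65, and IgG has at most 9 tags in the named regions of any class.

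Regions of both kinds went against the Tal1 pattern of their class. Of 659 regions leaning to Gata2, 170 held a bin raised in Tal1 (25.8%, 22.5 to 29.3). Of 1231 regions leaning to Ldb1 and away from IgG, 16 held no bin raised in Tal1. The one with most Ldb1 tags was chr6:28374001-28375000, with 55 Ldb1, 6 Gata2, 12 Tal1 and 2 IgG tags, followed by chr5:97229001-97229500, with 41 Ldb1, 3 Gata2, 4 Tal1 and 0 IgG tags. At chr16:6011001-6012000 there were 32 Ldb1, 0 Gata2, 1 Tal1 and 1 IgG tag. Ldb1 exceeded both other factors in these 3 regions, at lower counts than in the named ones. They were picked out after their values were seen.

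Some leaning regions of opposite kinds were neighbours. Of 659 regions leaning to Gata2, 18 had a region leaning to Ldb1 within 10 kb (2.73%, 1.63 to 4.28), and 28 had another region leaning to Gata2 that near (4.25%, 2.84 to 6.08), so that the intervals overlapped. Of 1231 regions leaning to Ldb1, 19 had one leaning to Gata2 within 10 kb (1.54%, 0.932 to 2.40) and 162 another of their own kind (13.2%, 11.3 to 15.2). More regions leaned to Ldb1 than to Gata2, so these shares had unlike numbers of possible neighbours. No expected share was computed. The closest pair lay on chromosome 15. Its region chr15:78750001-78750500 held 44 Ldb1, 7 Gata2, 31 Tal1 and 0 IgG tags. The partner, chr15:78751001-78751500, held 5 Ldb1, 24 Gata2, 7 Tal1 and 2 IgG tags. At chr2:93257001-93257500 there were 51 Ldb1, 3 Gata2 and 86 Tal1 tags, and at chr2:93260001-93260500, 3000 bp further on, 0 Ldb1, 14 Gata2 and 3 Tal1 tags. In all 19 such pairs, the member leaning to Ldb1 held more Tal1 tags than the one leaning to Gata2. Leading counts and widths were not matched within pairs, and chr2:93260001-93260500 entered more than 1 pair. Some differences were small, such as 12 against 11 Tal1 tags at chr19:5716001-5716500 and its partner.

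By chromosome, chromosome 11 had most leaning bins of both kinds per covered bin, with 0.518 per 1000 for Ldb1 (0.428 to 0.622) and 0.324 for Gata2 (0.254 to 0.408). Chromosome 3 had fewest for Ldb1 (0.207, 0.157 to 0.267) and chromosome 12 fewest for Gata2 (0.0829, 0.0483 to 0.133). The ratio of leaning bins differed between chromosomes, from 72 to 57 on chromosome 1, or 1.26 (0.880 to 1.82), to 70 to 17 on chromosome 12, or 4.12 (2.40 to 7.46). Those intervals did not overlap, but these chromosomes were picked as the extremes of 19. The ratio of all tags varied far less, between 0.969 on chromosome 13 and 1.03 on chromosome 8.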

How the data were processed

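Each deposited file holds the aligned positions of one library, repeats included, with no header. The submitters' processing notes name build mm8. The aligner is not given in the sources used here. Ldb1 and IgG files mark tags by mismatch class, and Tal1 and Gata2 files by match descriptor. The score column of the authors' files (0 for Ldb1 and IgG, 4 to 53 for Gata2, 4 to 119 for Tal1) was not used. Deposited tags numbered 6042990 for Ldb1, 7053702 for Gata2, 11134890 for Tal1 and 5156509 for IgG. On the autosomes 33.0% of Ldb1 and 14.1% of Gata2 tags repeated a position. Tags were placed by their 5′ end, thinned with a fixed seed, and binned from position 0 with Python 3.11.15, numpy 2.4.6 and scipy 1.17.1. The genome mean was taken over 4302944 bins with a tag in any library. Called bins with at most 1 bin between them were joined. Intervals are Clopper-Pearson or conditional binomial, and PCR copies make them too narrow. The tests were tested on simulated data with known changes, planted for the ratio in denser bins only. Of 100 changes in each direction, the ratio test found 16 and 10 at 3-fold, which is below its limit. At 6-fold it found 74 and 74, and at 12-fold 94 and 96. A bin without a lean can thus still differ. Of 2000 bins planted at 15 times the mean, 1910 were called raised. Named regions were the 10 of each class with most tags of the leading library, or the largest lower count, away from IgG-raised bins. The comparison, members and rules were chosen with earlier results of these data known. Matched counts, neighbouring regions, windows of 1 Mb and regions without raised Tal1 were added after seeing the data. Chromosomes X, Y and mitochondrial tags stayed out. Alternatives changed thinning, repeats, mismatches, bins, expected ratio, IgG filters and thresholds.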

Additional observations from a re-analysis of the deposited data

Results flagged for a closer look

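Chromosome X was outside the comparison and held signal above the control. Treated in the same way, with its own mean, it had 237 bins raised in Ldb1 and 215 raised in Gata2, against 30 raised in IgG. Per 1000 covered bins these were 0.943 for Ldb1 and 0.855 for Gata2, below the 3.91 and 4.63 of the autosomes. On it 18 bins leaned to Ldb1, 6 leaned to Gata2 and 57 were raised in both.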

How the results depend on the processing

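Alternatives moved counts more than directions: in all settings run, bins leaning to Ldb1 outnumbered those leaning to Gata2 and were more often raised in Tal1. With repeated tags kept, 3719 bins leaned to Ldb1 and 2253 to Gata2, 11329 were raised in both, the share of Ldb1-raised bins raised in Gata2 was 18.5% and the reverse 30.8%, and 66.0% of bins leaning to Ldb1 were raised in Tal1. With tags without a mismatch, 439 bins leaned to Gata2 and 3591 were raised in both; the shares were 30.8% and 29.8%, and 98.2% and 31.7% of bins leaning to Ldb1 and Gata2 were raised in Tal1. Without thinning the shares were 49.8% and 26.1%, and 45.0% of bins leaning to Gata2 were raised in Tal1, whose library was then also at full depth. Thinned to IgG, the shares were 34.7% and 30.5%; with bins of 1000 bp 45.1% and 35.3%; without bins raised in IgG and their neighbours 36.7% and 30.6%; against local IgG 35.9% and 30.4%. At a false discovery rate of 0.001 the first was 35.8%. At that rate, an alternative chosen after seeing the data, 964 bins leaned to Ldb1 and 287 to Gata2, and 31.0% of the latter were raised in Tal1. With at least 20 tags, 408 bins leaned to Gata2, and 98.8% and 44.9% of leaning bins were raised in Tal1. At 8-fold, 795 bins leaned to Ldb1 and 311 to Gata2. Other draws, moved tags, shifted bins, other expected ratios, 2-fold and an IgG minimum moved no count by over 1.5 times, and a summit width of 100 bp gave a distance of 60 bp. The ratio of the surrounding 50 kb ended the call of 2 named regions leaning to Ldb1 and 3 leaning to Gata2 (8-fold: 3 and 4). Some of these surroundings held another named region leaning the same way. All named regions raised in both kept their call under the 13 alternatives that apply to them. Libraries were thinned after the choice of tags. Keeping repeats therefore also raised the depth to 5772492 tags a side, and leaving out mismatched tags lowered it. The cause of the moves between settings was not tested. No paired analysis was possible because each antibody has 1 library.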

Other observations

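Outside bins raised in any library, the ratio of Ldb1 to Gata2 tags in 2360 windows of 1 Mb had a median of 0.996, with quartiles of 0.944 and 1.05. The standard deviation of the log2 ratio was 0.12, where counting error alone gives 0.05. The lowest ratio, 0.719 (0.670 to 0.772), was on chromosome 6 from 129000001 to 130000000, with 1359 Ldb1 and 1889 Gata2 tags. The highest, 1.33 (1.18 to 1.5), was on chromosome 7 from 10000001 to 11000000, with 664 Ldb1 and 499 Gata2 tags. Broad differences were thus small beside the 4-fold limit for bins.

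The window of 100 kb with most regions leaning to Ldb1 was on chromosome 7 from 103700001 to 103800000, where 5 regions held 158 Ldb1, 12 Gata2, 95 Tal1 and 3 IgG tags together. For Gata2 it was chromosome 11 from 53400001 to 53500000, where 3 regions held 71 Gata2, 11 Ldb1, 10 Tal1 and 3 IgG tags.

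Repeated tags differed between the libraries within the classes. Of the deposited tags in bins leaning to Ldb1, 44.6% of Ldb1 and 16.4% of Gata2 tags repeated a position, and in bins leaning to Gata2, 34.6% and 25.3%. In bins raised in both and in or next to bins raised in IgG, 71.0% of Ldb1, 69.9% of Gata2 and 78.0% of IgG tags did.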
